A study of Homo sapiens with 12 samples.

Results

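The 10 genes described here drive or restrain the passage of a cell from G1 into S phase. They are the D cyclins CCND1, CCND2 and CCND3, the kinases CDK4 and CDK6 that the D cyclins activate, the E cyclins CCNE1 and CCNE2, the inhibitors CDKN1B and CDKN2C, and the transcription factor E2F1. They were taken by gene symbol from the 60649 genes of a table of read counts, and all 10 passed the filter on low counts, as did 21114 genes in all. The 12 RNA sequencing libraries come from SK-LMS-1 and SK-UT-1B, established human uterine leiomyosarcoma (uLMS) cell lines, of which the study traces SK-UT-1B to a primary tumor and SK-LMS-1 to a metastasis. Both are labelled wild type, and each stands for a single tumor. SK-UT-1B cells received the DMSO vehicle (libraries 4-1 and 4-2) or a combination of MK-0752, gemcitabine and docetaxel (libraries 3-1 and 3-3). SK-LMS-1 cells received DMSO (set 2, libraries 2-1 and 2-3, and set 4, libraries 4-1 and 4-2), MK-0752 alone (libraries 2-2 and 2-3) or the combination (libraries 4-1 and 4-2). All exposures lasted 72 h, at concentrations set to each line's IC30, so the amount of MK-0752 differed between its use alone and in the combination. MK-0752 inhibits gamma secretase, the protease that releases the active part of Notch receptors. Gemcitabine, a cytidine analog, halts DNA synthesis, and docetaxel freezes microtubules.

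As background, growth signals raise the D cyclins, which bind CDK4 or CDK6 and start the phosphorylation of the retinoblastoma protein RB1. RB1 then lets go of E2F factors such as E2F1, which switch on genes for DNA synthesis and also the E cyclins. Cyclin E with CDK2 completes the phosphorylation of RB1. CDKN2C (p18) binds CDK4 and CDK6 and keeps them from the D cyclins, whereas CDKN1B (p27) holds cyclin E with CDK2 in check and is marked for destruction by SKP2. Loss of the RB1 pathway is a recurrent feature of leiomyosarcoma, and CCND1 is also known as a target of Notch signaling.

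Since E2F1 is both a member and a regulator of other members, the 250 bases before each gene's start were searched for 4 E2F cores on both strands, namely TTCCCGC, then the variant TTGGCGC, then the variant TTCGCGC, and lastly TTGCCGC. RefSeq promoters of build GRCh38.p14 covered 7 members with 12 start sites, and CCND1, CCND2 and CCNE2 were not covered. A core was found before E2F1 itself and before 1 start of CDKN2C, each of which held 2, and 10.9% of the 35116 promoters searched held one. Both stretches are shown because E2F1 and CDKN2C were the members with cores. Capitals mark the cores, and each stretch ends at the base before the start. The E2F1 stretch is chr20:33686386-33686635 on the minus strand, with cores at -33 to -27 and -19 to -13 from the start. The CDKN2C stretch is chr1:50968456-50968705 on the plus strand, with cores at -131 to -125 and -34 to -28.
E2F1 promoter: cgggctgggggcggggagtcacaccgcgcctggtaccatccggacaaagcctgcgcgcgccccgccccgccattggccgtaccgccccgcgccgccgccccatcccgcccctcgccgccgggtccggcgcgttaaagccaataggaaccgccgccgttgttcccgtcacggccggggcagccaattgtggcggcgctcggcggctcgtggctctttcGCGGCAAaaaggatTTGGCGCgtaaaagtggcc
CDKN2C promoter: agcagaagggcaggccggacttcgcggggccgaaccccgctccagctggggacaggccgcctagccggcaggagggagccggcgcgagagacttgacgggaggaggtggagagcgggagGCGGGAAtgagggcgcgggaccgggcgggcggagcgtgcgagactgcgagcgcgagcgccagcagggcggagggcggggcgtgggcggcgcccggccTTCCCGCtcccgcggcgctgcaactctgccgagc
The SP1 box GGGCGG was in 9 of the 12 stretches, some of which belong to the same gene, and in 42.6% of all promoters. The core TGGGAA of RBPJ, the DNA-binding partner of Notch, and the cell cycle homology element TTTGAA were in 0 of the 12, against 20.8% and 13.3% of all promoters. These matches describe letters in these windows.

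Totals were 25250057 to 40709885 counts per library. Of the genes whose level in the line's other libraries predicts 5 to 500 counts, 17.4% to 34.7% were at 0 in a library, where Poisson sampling gives at most 0.0373%. If that excess comes from several reads per RNA molecule, a molecule carried 11.1 to 27.9 reads, so low counts are less precise than they look. Smooth muscle markers summed to 109 to 124 CPM in SK-UT-1B after DMSO and to 565 to 626 CPM in SK-LMS-1, and MYOCD was at 0 in both. Epithelial markers summed to 0.637 to 1.38 CPM and 226 to 277 CPM, respectively. Their part in the results was not tested. In bulk RNA, fewer cells of a type and less RNA per cell cannot be told apart. The labels do not say whether libraries of a group came from separate cultures, so p-values measure the spread between these libraries, which may be technical. Values below are CPM (counts scaled by library totals with TMM factors), levels between genes are CPM per kilobase of exon, and log2FC, standard errors (SE) and adjusted p are from edgeR's quasi-likelihood test. The exon length takes in every exon annotated for a gene, such as 9255 bases for CDKN1B, whether or not these cells use it. Ranks and shares between genes depend on that length, and which exons were used was not tested.

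The D cyclins were composed differently in the lines. CCND1 (ENSG00000110092.4, chr11:69641156-69654474, hg38) had 241 and 226 CPM in the SK-UT-1B DMSO libraries. The 4 SK-LMS-1 DMSO libraries had 1558, 1475, 1556 and 1609.9 CPM. Every SK-LMS-1 library was thus above both SK-UT-1B libraries, with a log2FC of 2.73 (SE 0.12, adjusted p = 6.05e-13) or 6.64-fold. CCND2 (ENSG00000118971.9, chr12:4269771-4305353) went the other way, with 699 and 656 CPM in SK-UT-1B and 324, 330.4, 262 and 308 CPM in SK-LMS-1. The groups did not overlap, and CCND2 was 2.22-fold lower in SK-LMS-1 (log2FC -1.15, SE 0.13, adjusted p = 3.01e-07). CCND3 (ENSG00000112576.13, chr6:41934934-42050357) had 38.7 and 37.8 CPM in SK-UT-1B and 22.0, 24.5, 33.5 and 35.1 CPM in SK-LMS-1. Its libraries did not overlap either, but its log2FC of -0.44 (95% interval -1.20 to 0.32, adjusted p = 0.353) did not pass the test.

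Per kilobase, CCND2 made up 60.4% ± 0.0319 (SD, n = 2) of D cyclin RNA in SK-UT-1B after DMSO, CCND1 34.9% ± 0.0945 and CCND3 4.73% ± 0.126. In SK-LMS-1, CCND1 made up 88.2% ± 0.936 (SD, n = 4), CCND2 10.4% ± 1.15 and CCND3 1.35% ± 0.286. The leading D cyclin was therefore CCND2 in SK-UT-1B and CCND1 in SK-LMS-1, in every library.

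**Figure D1:**
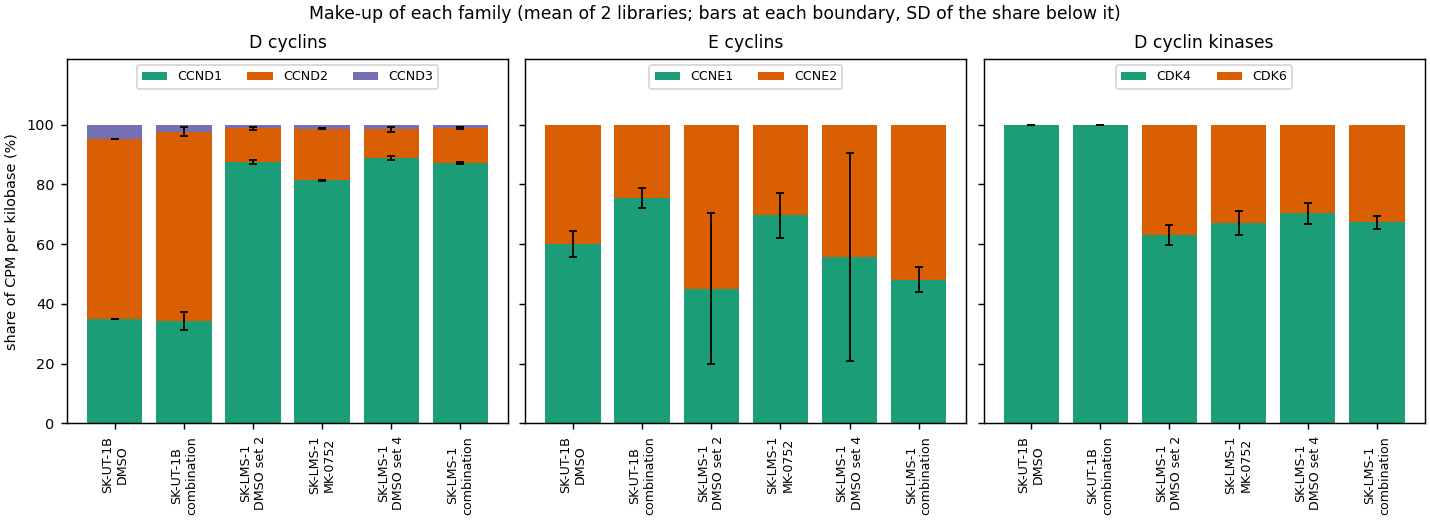
Share of each gene in the CPM per kilobase (y axis, %) of the D cyclins, the E cyclins and the D cyclin kinases, as the mean of 2 libraries for each of the 6 groups, with the SD of the share below each boundary as error bars. CCND2 leads the D cyclins in SK-UT-1B and CCND1 in SK-LMS-1, and CDK6 is visible in SK-LMS-1 alone, at 29.7% to 37.0% of the kinase pair.

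The kinase partners differed as well. CDK6 (ENSG00000105810.10, chr7:92604921-92836573) had 0.935 and 1.09 CPM in SK-UT-1B after DMSO, from 27 and 41 counts, which would be 1.18 to 2.30 molecules by the estimate above. In SK-LMS-1 it had 225, 216, 164 and 185 CPM. The log2FC was 7.59 (SE 0.22, adjusted p = 9.22e-16), the largest among the members. CDK4 (ENSG00000135446.17, chr12:57747727-57756013) had 153 and 133 CPM in SK-UT-1B and 87.3, 102.9, 110.8 and 99.0 CPM in SK-LMS-1. Every SK-LMS-1 library was lower, by 1.43-fold (log2FC -0.52, SE 0.15, adjusted p = 0.00723). CDK4 hence accounted for 99.8% ± 0.0367 (SD, n = 2) of the pair per kilobase in SK-UT-1B and for 66.6% ± 5.07 (n = 4) in SK-LMS-1. Exons of CDK4 overlap those of TSPAN31 on the other strand, which had up to 1753 counts. The library kit keeps the strand, but whether the counts used it is not stated, so CDK4 is uncertain to that extent. CCND1 (LTO1, up to 407 counts) and CCND2 (CCND2-AS1, up to 17) have partners on the other strand with far fewer counts than their own. CDK6-AS1 had up to 45 counts in a library, more than CDK6 itself had in any SK-UT-1B library. That maximum is over all 12 libraries of both lines, so CDK6 may be affected in SK-UT-1B and is uncertain there.

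Both E cyclins were lower in SK-LMS-1. CCNE1 (ENSG00000105173.14, chr19:29811991-29824312) had 21.5 and 31.4 CPM in SK-UT-1B and 2.38, 5.54, 5.60 and 2.12 CPM in SK-LMS-1, which is 6.80-fold lower (log2FC -2.76, SE 0.43, adjusted p = 2.56e-05). CCNE2 (ENSG00000175305.18, chr8:94879770-94896678) had 29.0 and 32.9 CPM in SK-UT-1B and 11.4, 5.83, 2.43 and 8.47 CPM in SK-LMS-1, or 4.50-fold lower (log2FC -2.17, SE 0.43, adjusted p = 0.000372). With a library left out, the log2FC of CCNE2 ran from -2.80 to -1.89. No SK-LMS-1 library reached an SK-UT-1B library for either gene, although the SK-LMS-1 libraries varied widely among themselves. The fewest counts were 82 for CCNE1 and 60 for CCNE2, both in DMSO set 4 of SK-LMS-1, or 3.26 and 2.33 molecules by the estimate above. INTS8 overlaps exons of CCNE2 on the other strand with up to 3883 counts, so CCNE2 is uncertain in the same way as CDK4.

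The inhibitors differed in pattern. CDKN2C (ENSG00000123080.12, chr1:50960745-50974634) had 131 and 130.4 CPM in SK-UT-1B and 26.3, 32.7, 30.6 and 32.8 CPM in SK-LMS-1, with a wide gap between the groups. It was 4.27-fold lower in SK-LMS-1 (log2FC -2.10, SE 0.17, adjusted p = 3.50e-09). CDKN1B (ENSG00000111276.12, chr12:12685498-12722369) had 69.7 and 92.0 CPM in SK-UT-1B and 79.8, 81.2, 86.0 and 70.8 CPM in SK-LMS-1. The SK-LMS-1 values lay inside the SK-UT-1B range, and the log2FC was -0.03 (95% interval -0.39 to 0.34, adjusted p = 0.982). E2F1 (ENSG00000101412.13, chr20:33675477-33686385) had 51.9 and 37.5 CPM in SK-UT-1B and 19.3, 27.6, 22.7 and 27.1 CPM in SK-LMS-1. It was 1.85-fold lower there (log2FC -0.89, SE 0.24, adjusted p = 0.00578) without overlap.

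**Figure D2:**
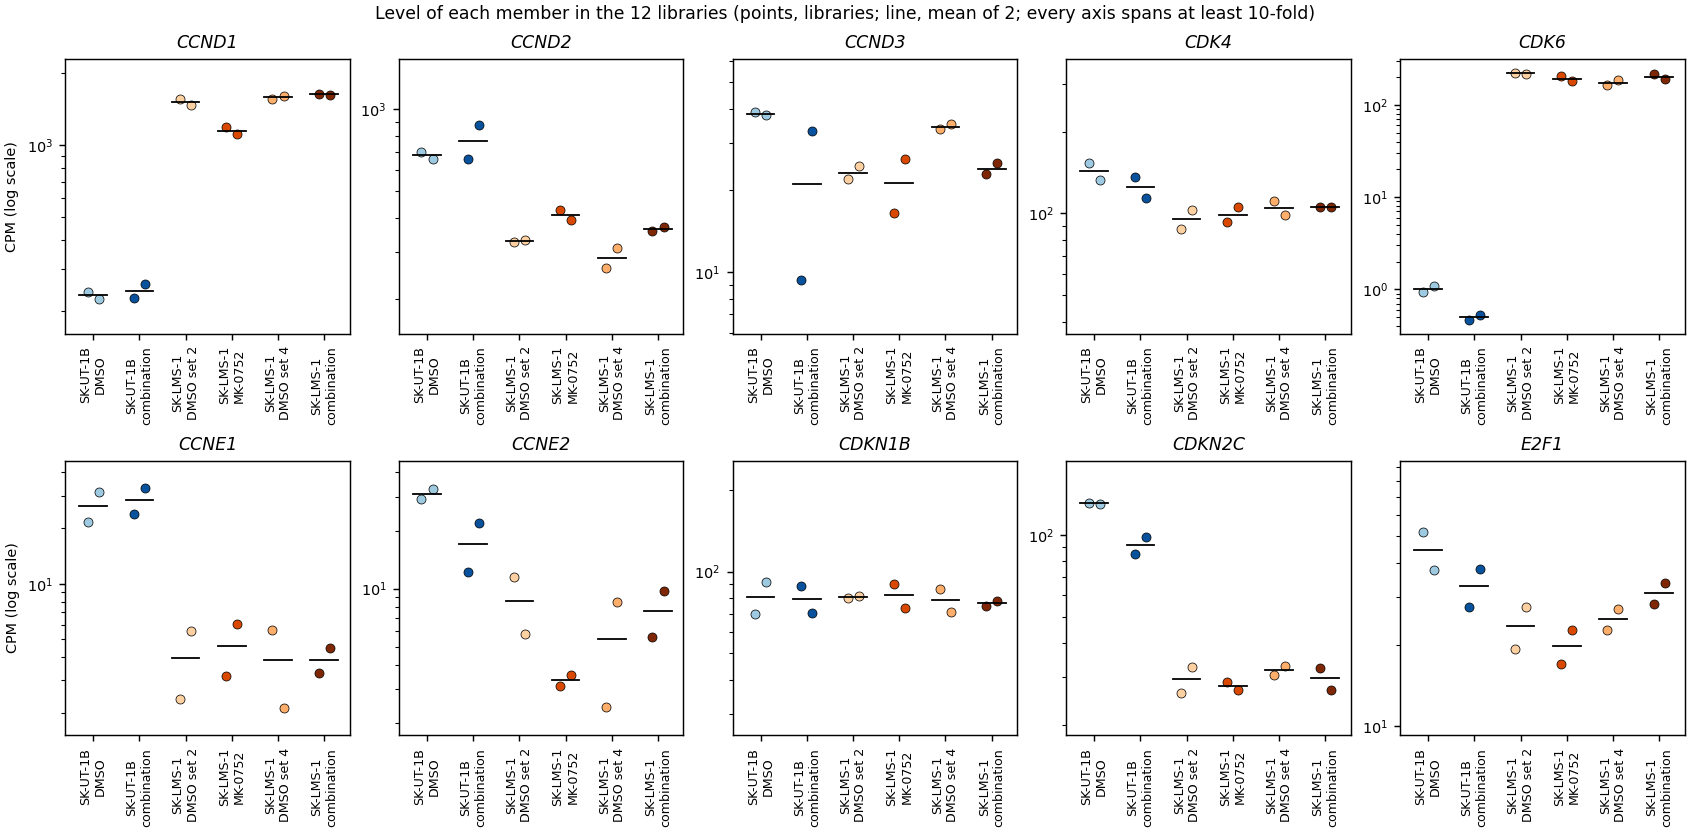
CPM (y axis, log scale) of each of the 10 genes in the 12 libraries, with a point for each library and a line at the mean of 2 libraries for each of the 6 groups. CCND1 and CDK6 sit higher in all SK-LMS-1 libraries than in all SK-UT-1B libraries, CCND2, CCNE1, CCNE2 and CDKN2C sit lower, and CDKN1B stays between 69.7 and 92.0 CPM throughout.

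A gene was called differentially expressed when its adjusted p was under 0.05 and its log2FC at least 1 in size. By this rule 6 of the 10 members differed between the lines after DMSO, where 31.1% of all tested genes did. CCND1 and CDK6, or 2 members, were higher in SK-LMS-1, against 17.0% of tested genes, and the 4 members CCND2, CCNE1, CCNE2 and CDKN2C were lower, against 14.1%. By adjusted p alone 8 members passed, with CDK4 and E2F1 added, against 41.0% of tested genes. Neither of these passed once SK-UT-1B DMSO library 4-1 was left out, with a log2FC of -0.46 (adjusted p = 0.115) for CDK4 and -0.68 (adjusted p = 0.122) for E2F1. Each group held 2 libraries, so here and in every later fit without a library that group was 1 library, which was assumed to vary like the other groups. The median log2FC was -0.70 over the members and 0 over all tested genes.

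Per kilobase, SK-UT-1B after DMSO had CCND2 on top (84.8 ± 3.83 CPM per kilobase, SD, n = 2), and CCND1, CDK4 and CDKN2C followed at 49.0, 46.3 and 43.3. CCND1 overlapped CDK4 in range and CDK4 overlapped CDKN2C, so these neighbors were not told apart. Next came E2F1 (16.6), CCNE1 (10.8), CDKN1B (8.73), CCNE2 (7.04) and CCND3 (6.64), of which CCNE1 overlapped CDKN1B and CCNE2 overlapped CCND3. CDK6 stood last at 0.0826 CPM per kilobase. In SK-LMS-1 after DMSO, CCND1 led with 325 ± 11.7 CPM per kilobase (SD, n = 4), far ahead of CCND2 (38.3) and CDK4 (32.3), which overlapped each other. CDK6 came next at 16.1. CDKN2C (10.1), E2F1 (8.99) and CDKN1B (8.59) overlapped in turn, CCND3 had 5.00, and CCNE2 (1.60) and CCNE1 (1.59) came last with overlapping ranges.

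After the combination, 5 members differed between the lines, against 25.4% of tested genes, with 2 higher (15.6% of tested genes) and 3 lower (9.88%). The combination libraries carry set number 3 in SK-UT-1B and 4 in SK-LMS-1, and the part of that number was not tested. CCND1 was higher in SK-LMS-1 with a log2FC of 2.74 (SE 0.13, adjusted p = 1.91e-12), and CDK6 with 8.67 (SE 0.24, adjusted p = 6.34e-16). CCND2 was lower with -1.08 (adjusted p = 1.10e-05), CCNE1 with -2.88 (adjusted p = 0.000328) and CDKN2C with -1.63 (adjusted p = 3.13e-06). CCND2 had a log2FC of -0.85 once SK-UT-1B combination library 3-3 was left out. CCNE2 had -1.15 (adjusted p = 0.109) and did not pass, while without the filter on low counts it had -1.18 (adjusted p = 0.0379). With a library left out, CCNE2 ran from -1.60 to -0.67, with -1.53 without SK-UT-1B library 3-1. For E2F1 the log2FC was -0.08 (95% interval -0.69 to 0.52), for CDK4 -0.25 (-0.61 to 0.11) and for CDKN1B -0.05 (-0.47 to 0.37). CCND3 had 0.19, and the value depended on which SK-UT-1B library was kept, with -0.48 without 3-1 and 1.37 (adjusted p = 0.00282) without 3-3.

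**Figure D3:**
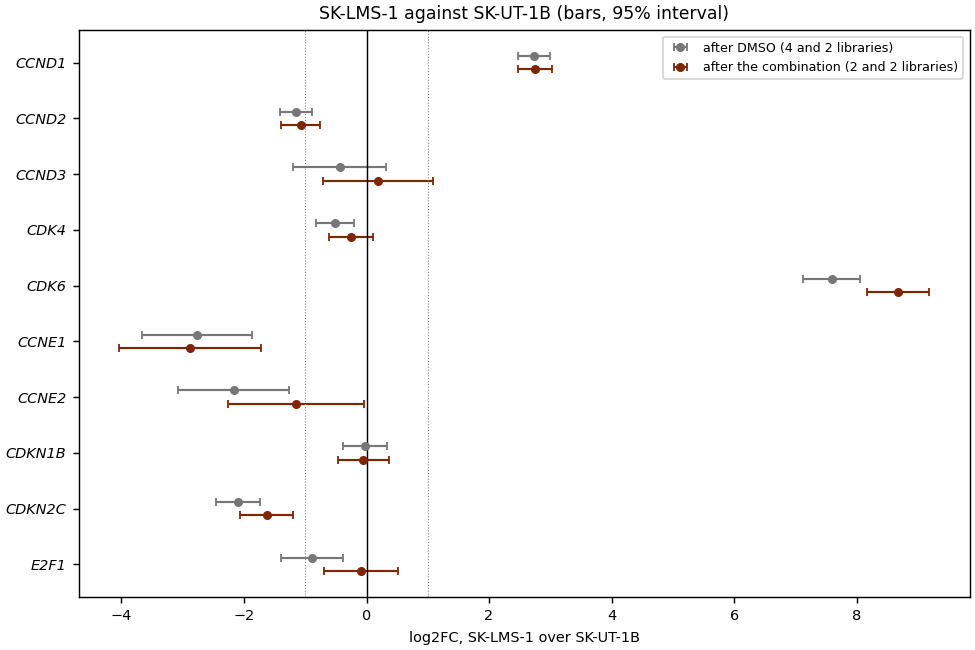
Log2FC of SK-LMS-1 over SK-UT-1B (x axis) for the 10 genes after DMSO and after the combination, with 95% intervals, a solid line at 0 and dotted lines at -1 and 1. CDK6 and CCND1 lie far to the right in both conditions, CCNE1 and CDKN2C far to the left, and the intervals of CCND3 and CDKN1B include 0 in both.

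Other genes of the pathway also differed after DMSO. Of 43 other G1 regulators tested, 4 had higher and 15 had lower expression in SK-LMS-1 by both criteria, beside 17.0% and 14.1% of all tested genes. The inhibitors CDKN1A (log2FC 1.52, adjusted p = 2.78e-05), CDKN2A (2.08, adjusted p = 1.09e-05), CDKN2B (7.75, adjusted p = 6.29e-05) and CDKN2D (3.07, adjusted p = 0.0178) were the higher ones. CDKN2B had 9 and 12 counts in SK-UT-1B and a mean of 68.6 CPM in SK-LMS-1. Among the lower ones were SKP2, the receptor that marks CDKN1B for degradation (-3.88, adjusted p = 1.87e-12), RBBP4, a histone-binding partner of RB1 (-2.03, adjusted p = 1.40e-10), E2F2 (-3.81), E2F8 (-3.09), CCNA2 (-1.89) and CDK2, the partner of the E cyclins (-1.06, adjusted p = 0.000235). RB1 itself had 114 ± 16.5 CPM (SD, n = 2) in SK-UT-1B and 111 ± 12.8 CPM (n = 4) in SK-LMS-1, with a log2FC of -0.04 (adjusted p = 0.912). Its relatives RBL1 (0.29, adjusted p = 0.246) and RBL2 (-0.04, adjusted p = 0.907) did not pass either.

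Of 52 E2F target genes, 39 had lower expression in SK-LMS-1 after DMSO by both criteria, beside 14.1% of all tested genes, with a median log2FC of -1.59. MCM4 and MCM5, subunits of the replicative helicase, had -2.45 (adjusted p = 8.95e-11) and -2.12 (adjusted p = 1.20e-08), MYBL2 -3.61, CDC6 -3.10 and MCM10 -3.19. Among 20 genes that act on cyclin D induction or on CDKN1B, 6 were higher and 3 lower, beside 17.0% and 14.1% of all tested genes. JUN (5.00, adjusted p = 3.42e-08) and FOSL1 (4.07, adjusted p = 1.17e-08), components of AP-1, and ETS1 (3.01) and ETS2 (2.55) were higher, and the Wnt effector LEF1 was lower (-5.04, adjusted p = 2.12e-14). The 8 proliferation markers summed to 2853 to 3150 CPM in SK-UT-1B after DMSO and to 978 to 1025 CPM in SK-LMS-1, and their part in these differences was not tested.

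No member was called in any of the 3 treatment comparisons. In SK-UT-1B, the combination gave 0 differentially expressed members, against 0.559% of tested genes, and 2 members (CDK6 and CDKN2C) had an unadjusted p under 0.05, as did 2214 of the 21114 tested genes. CDK6 had 0.935 and 1.09 CPM after DMSO and 0.465 and 0.532 CPM after the combination, without overlap. Its log2FC was -1.03 (95% interval -1.59 to -0.47, adjusted p = 0.0950), on 15 to 41 counts. It passed with -1.04 (adjusted p = 0.0246) without the filter on low counts and with -1.12 (adjusted p = 0.0411) without library 3-3, where 1 combination library stood for the treatment and the other groups gave the spread. CDKN2C had 131 and 130.4 CPM after DMSO and 85.4 and 98.1 CPM after the combination. These libraries did not overlap either, and the log2FC was -0.51 (95% interval -0.93 to -0.09, adjusted p = 0.328).

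CCND3 depended on a single library. It had 38.7 and 37.8 CPM after DMSO, 33.0 CPM in combination library 3-3 and 9.34 CPM in library 3-1. The log2FC was -0.86 (95% interval -1.76 to 0.04, adjusted p = 0.515), without library 3-3 it was -2.03 (adjusted p = 3.74e-05), and without library 3-1 it was -0.24 (adjusted p = 1). Both of these values rest on 1 combination library, with the spread taken from the other groups. CCNE2 had 29.0 and 32.9 CPM after DMSO and 12.1 and 21.8 CPM after the combination, with a log2FC of -0.87 (95% interval -1.96 to 0.22, adjusted p = 0.633). E2F1 overlapped between the groups, with 51.9 and 37.5 CPM against 27.4 and 38.1 CPM and a log2FC of -0.45 (-1.05 to 0.15). The intervals were narrow for CCND1 (0.06, from -0.20 to 0.32), CCND2 (0.18, from -0.14 to 0.49), CDK4 (-0.19, from -0.55 to 0.17) and CDKN1B (-0.03, from -0.44 to 0.39), and wide for CCNE1 (0.11, from -0.96 to 1.17). In this line the combination libraries carry the set number 3 and the DMSO libraries 4, so what that number marks and the treatment cannot be told apart.

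In SK-LMS-1, MK-0752 alone gave 0 differentially expressed members against DMSO set 2, where 0.251% of tested genes were, and 3 members had an unadjusted p under 0.05, as did 1354 of the tested genes. CCND1 had 1558 and 1475 CPM after DMSO and 1185 and 1108 CPM after MK-0752. Both MK-0752 libraries were the lowest of the 8 SK-LMS-1 libraries, but the log2FC of -0.40 (95% interval -0.66 to -0.14, adjusted p = 0.331) did not pass. DESeq2 gave the same log2FC an adjusted p of 0.0204, and over all alternatives the adjusted p ranged up to 1. CCND2 had 324 and 330.4 CPM after DMSO and 426 and 392 CPM after MK-0752, where both libraries were the highest of the line (log2FC 0.32, 95% interval 0.01 to 0.64, adjusted p = 0.772). CCND1 accordingly made up 81.4% ± 0.224 (SD, n = 2) of D cyclin RNA per kilobase after MK-0752 and 87.6% ± 0.629 in DMSO set 2, and CCND2 17.3% ± 0.232 and 11.3% ± 0.508. CCNE2 had 11.4 and 5.83 CPM after DMSO and 3.14 and 3.59 CPM after MK-0752 (log2FC -1.36, 95% interval -2.48 to -0.24, adjusted p = 0.588). Its log2FC ran from -1.78 to -0.79 with a library left out. The other SK-LMS-1 DMSO libraries held 2.43 and 8.47 CPM, so the MK-0752 values lay within the spread of the vehicle. The remaining 7 members had a log2FC between -0.24 (E2F1) and 0.22 (CCNE1). With a library left out, CCNE1 ran from -0.31 to 0.93, E2F1 from -0.48 to 0.02 and CCND3 from -0.50 to 0.17.

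The combination in SK-LMS-1 gave 0 differentially expressed members against DMSO set 4, where 0.0237% of tested genes were, and 1 member had an unadjusted p under 0.05, as did 914 of the tested genes. This was CCND2, with 262 and 308 CPM after DMSO and 358 and 369 CPM after the combination (log2FC 0.35, 95% interval 0.04 to 0.66, adjusted p = 0.907). CCND1 had 1556 and 1609.9 CPM against 1638 and 1622 CPM (log2FC 0.04, 95% interval -0.22 to 0.30), and CDK4 had a log2FC of 0.01 (-0.35 to 0.37). CDK6 had 164 and 185 CPM after DMSO and 216 and 190.0 CPM after the combination, with a log2FC of 0.22 (-0.12 to 0.55). In CCND3 both combination libraries were lower (23.0 and 25.2 CPM against 33.5 and 35.1 CPM, log2FC -0.51, adjusted p = 0.932), yet DMSO set 2 had 22.0 and 24.5 CPM. The DMSO sets differed in 0 members, with 0 tested genes called in edgeR, or 0%, and 0 members at an unadjusted p under 0.05, against 1197 of all genes. DESeq2 called 30 genes between these sets.

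**Figure D4:**
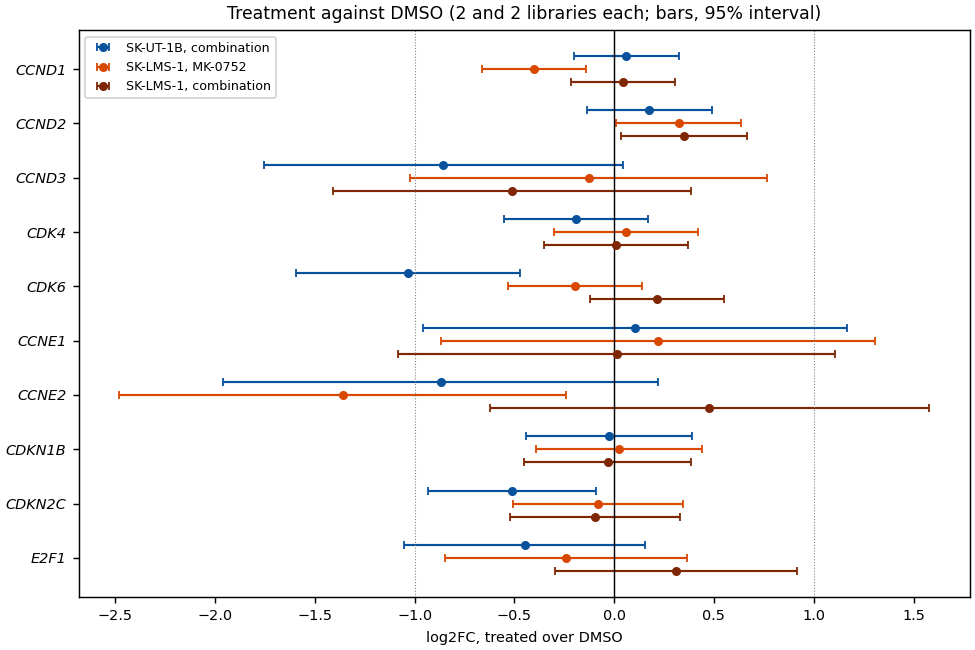
Log2FC of treated over DMSO libraries (x axis) for the 10 genes in the 3 treatment comparisons, with 95% intervals, a solid line at 0 and dotted lines at -1 and 1. CDK6 in SK-UT-1B (-1.03) and CCNE2 after MK-0752 (-1.36) have the most negative values, and the E cyclins and CCND3 have the widest intervals.

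The responses were compared directly. In SK-UT-1B alone the combination and DMSO libraries carry different set numbers, whose part in the difference between the lines' effects was not tested. The effect of the combination differed between the lines in 0 members, against 0.232% of tested genes, and 1 member had an unadjusted p under 0.05, as did 1619 genes in all. This was CDK6, whose log2FC was higher by 1.25 in SK-LMS-1 (SE 0.31, adjusted p = 0.167). Without the filter on low counts the difference was 1.23 (adjusted p = 0.0478), without DMSO library 4-2 of SK-LMS-1 it was 1.38 (adjusted p = 0.0337), and without combination library 3-3 of SK-UT-1B it was 1.34 (adjusted p = 0.0305). Within SK-LMS-1, the effect of MK-0752 differed from that of the combination in 0 members, against 0.0379% of tested genes, and 2 had an unadjusted p under 0.05, as did 1094 genes in all. The effect on CCND1 was lower by 0.45 on the log2 scale after MK-0752 (95% interval of the difference -0.81 to -0.08, adjusted p = 0.911), and the difference for CCNE2 was -1.84 (-3.40 to -0.27, adjusted p = 0.911). For the lines' combination effects the CCNE2 difference was 1.35 (adjusted p = 0.682). With a library left out, it ran from 0.739 to 2.56 there and from -3.04 to -1.22 for MK-0752 against the combination. DMSO library 4-2 had 8.47 CPM of CCNE2 where library 4-1 had 2.43. Without library 4-2, the CCNE2 difference was -3.04 within SK-LMS-1, and that between the lines' combination effects was 2.56. DMSO set 4 was then library 4-1 alone, with 60 counts of CCNE2 or 2.33 estimated molecules, and the spread came from the other groups. CCND3 had a difference of 0.34 between those effects (adjusted p = 1.00) and of 1.52 (adjusted p = 0.0473) without combination library 3-3 of SK-UT-1B.

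Genes downstream of the members were read in the same comparisons. In SK-UT-1B, 51 of the 52 E2F target genes had a negative log2FC after the combination, where 42.5% of all tested genes did, and the median was -0.64 against 0. By adjusted p 2 of them fell, against 0.251% of tested genes, and 32 were lower at an unadjusted p under 0.05, against 5.08%. The 2 were subunits of ribonucleotide reductase, which makes deoxynucleotides and is itself a target of gemcitabine. RRM2 went from 322 ± 17.8 to 173 ± 38.7 CPM (SD, n = 2 each), a log2FC of -0.90 (adjusted p = 0.0139), and RRM1 from 357 ± 16.4 to 192 ± 72.1 CPM, a log2FC of -0.89 (adjusted p = 0.0417). After MK-0752 in SK-LMS-1, 47 of 52 were negative (45.8% of all genes) with a median of -0.38, and 16 were lower at an unadjusted p under 0.05 (3.94% of all genes). RRM2 alone passed (0.279% of tested genes fell), from 214 ± 4.48 to 94.9 ± 15.7 CPM (log2FC -1.17, adjusted p = 0.00226). After the combination in SK-LMS-1, 40 of 52 were negative (39.4% of all genes) with a median of -0.18, and 0 passed in edgeR, with 6 lower at an unadjusted p under 0.05 (1.16% of all genes). The number below 0 stayed at 49 to 52, 43 to 49 and 33 to 42 in these comparisons over the alternatives. The 8 proliferation markers were all below 0 in each of the 3 comparisons, with medians of -0.78, -0.86 and -0.40. Of these, 2 fell after MK-0752, namely MKI67, the gene of the Ki-67 antigen (log2FC -0.91, adjusted p = 0.00488), and the mitotic cyclin CCNB1 (-1.09, adjusted p = 0.0286), and 0 passed in edgeR after the combination in either line, with 7 at an unadjusted p under 0.05 in SK-UT-1B and 3 in SK-LMS-1.

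**Figure D5:**
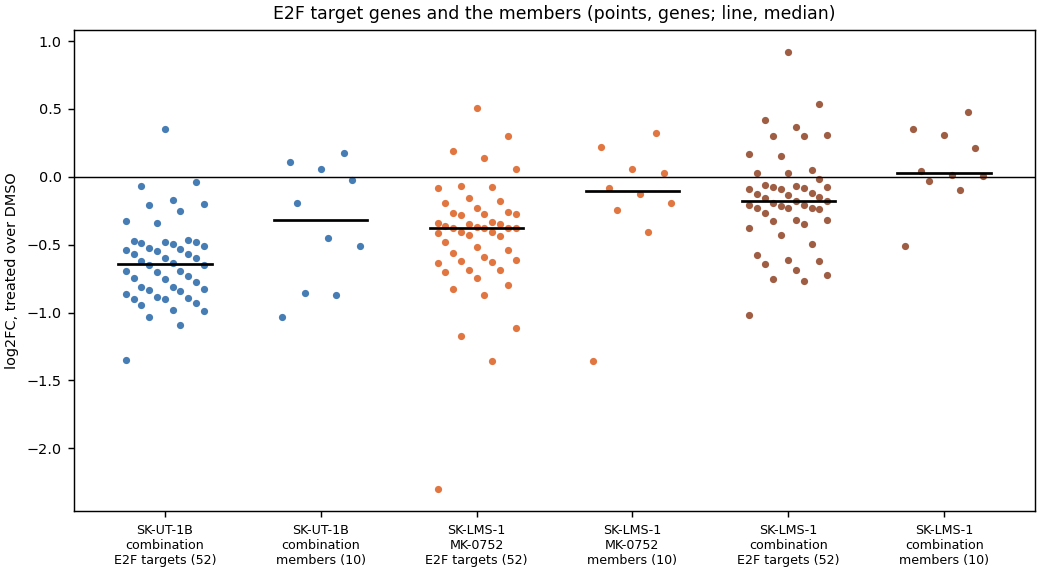
Log2FC of treated over DMSO (y axis) for the 52 E2F target genes and the 10 members in the 3 treatment comparisons, with a point for each gene and a line at the median. The E2F targets lie mostly below 0, with medians of -0.64, -0.38 and -0.18, where the members have medians of -0.32, -0.11 and 0.03.

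Among the other G1 regulators, 1 rose and 1 fell in SK-UT-1B after the combination by both criteria, beside 0.393% and 0.166% of all tested genes. CDKN1A, the p53-induced inhibitor p21, went from 18.3 ± 5.41 to 41.4 ± 4.04 CPM (SD, n = 2 each; log2FC 1.18, adjusted p = 0.0391). CCNA2, the S phase cyclin, went from 224 ± 18.3 to 99.5 ± 45.2 CPM (log2FC -1.17, adjusted p = 0.0365). A model of only the libraries compared called 0 genes here, so both calls and that of EGR1 below ended. SKP2 had -0.72 (adjusted p = 0.173), and RB1 -0.03. At an unadjusted p under 0.05, 2 of the 43 were higher and 9 lower, against 5.41% and 5.08% of tested genes. After MK-0752 in SK-LMS-1, E2F8, a repressor of the E2F family, fell from 12.5 ± 2.10 to 4.27 ± 0.193 CPM (log2FC -1.55, adjusted p = 0.0466), as 1 of the 43, beside 0.194% of all tested genes called lower. Here 1 of the 43 was higher and 9 were lower at an unadjusted p under 0.05, against 2.48% and 3.94% of tested genes. After the combination in SK-LMS-1, 0 of the 43 passed in edgeR, where 0.0237% of tested genes did, with 0 at an unadjusted p under 0.05, where 1.16% were lower and 3.17% higher. Of the 20 genes around cyclin D induction, the early response factor EGR1 rose in SK-UT-1B (log2FC 2.61, adjusted p = 0.00160), where 0.464% of tested genes rose. The Notch target HES1 fell in SK-LMS-1 after MK-0752 (-2.76, adjusted p = 0.0153) and after the combination (-3.37, adjusted p = 0.0227), and it was the only gene of that list to pass in either, beside 0.279% and 0.00947% of tested genes that fell. In SK-UT-1B after the combination, HES1 had a log2FC of -1.70 (adjusted p = 0.141) and did not pass.

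Across the 12 libraries, with log2 CPM centered within each line, the genes most like a member among 13522 were described by Pearson's r, which also reflects library depth and treatment. The r of each nearest gene was picked as the highest among 13522, so it is high by selection and was not tested. CCNE2 was most like CDK2, its kinase partner (r = 0.96). CCND3 was most like the tubulin gene TUBA1C (r = 0.98), CCND2 like the semaphorin SEMA3C (r = 0.97), CCND1 like the protease inhibitor SERPINE2 (r = 0.94) and CDK6 like the proteasome subunit PSMD1 (r = 0.98). For CDKN2C the nearest was the chaperonin subunit CCT2 (r = 0.91), for E2F1 ELOVL1 (r = 0.91), for CDK4 PAX9 (r = 0.94), for CCNE1 PCDHGC5 (r = 0.90) and for CDKN1B TMEM254 (r = 0.87). Between members, r ran from -0.60 (CDKN1B and E2F1) to 0.74 (CDK6 and CDKN2C).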

How the data were processed

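RNA of 12 libraries was sequenced. Per the paper's methods and the submitters' processing notes, the authors trimmed adaptors with Trim Galore 0.3.7, aligned the reads to hg38 with STAR 2.7.9a, filtered out ribosomal RNA with SortMeRNA, and had STAR count reads on genes. They deposited these raw counts, which are not normalized. The annotation and strand setting of the counts are not given in the sources used here. Gene positions and exon lengths were taken from GENCODE v44, which holds 60507 of the 60649 gene identifiers, and 30598 genes were at 0 in every library. Deposited totals were 25250057 to 40709885 counts per library.

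There were 6 groups of 2 libraries, defined by line and treatment, and the SK-LMS-1 DMSO libraries were split by set number. In R 4.3.3, the quasi-likelihood test of edgeR 4.0.16 (robust, with all groups in the model and TMM factors) was applied to the 21114 genes that filterByExpr kept, with Benjamini-Hochberg adjustment over all of them. A call needed an adjusted p under 0.05 and a log2FC of 1 or more in size. SK-LMS-1 DMSO was the mean of both sets in the comparison of lines. Intervals are 95% and cover the spread between libraries. The script was tested on simulated data with 200 genes changed in the SK-UT-1B combination. There edgeR called 70% of the 200, and 6.67% of its calls were false. DESeq2 called 77% of the 200, and 28.7% of its calls were false. Alternatives were DESeq2 1.42.0, its size factors in edgeR, no filter (apart from 1 count), only genes with a mean of 50 counts or more, a model of only the libraries compared, all 4 SK-LMS-1 DMSO libraries as control, a replicate block and each library left out.

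The members, the lists and their tests were chosen with earlier results of these data known. All 10 members are named. From the wider lists, named genes are those that passed by adjusted p, at most 5 of the lowest p per list and comparison. The partners RB1, RBL1, RBL2, CDK2, CDKN1A, CDKN2A, CDKN2B, CDKN2D, CCNA2 and SKP2 are also named, as is the marker MYOCD. The gene with the highest r is named for each member. Tests of whole lists were not run. The number of E2F target genes below 0 under each alternative was added after the data were examined. A result that the lists include is not reported here.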

Additional observations from a re-analysis of the deposited data

How the results depend on the processing

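The members called between the lines numbered 6 to 7 after DMSO and 5 to 6 after the combination under every alternative run. In SK-UT-1B the combination gave 1 called member (CDK6) without the filter on low counts and 0 to 2 with a library left out, CDK6 and CCND3 being called without combination library 3-3. The difference between the lines' combination effects gave 1 called member (CDK6) without the filter and 0 to 2 with a library left out. The MK-0752 effect against the combination effect gave 0 to 1 with a library left out, CCNE2 being called without DMSO library 4-2. The cause was not tested. With a library left out, the log2FC of CCND3 ran from -0.48 to 1.37 between the lines after the combination and from -0.30 to 1.52 for the difference of combination effects, the lowest without SK-UT-1B library 3-1 and the highest without 3-3, where it was called in both (adjusted p = 0.00282 and 0.0473). E2F1 between the lines after DMSO ran from -1.10 to -0.68 with a library left out, beyond -1 in 3 such fits and with an adjusted p of 0.122 without SK-UT-1B library 4-1, where CDK4 had 0.115.

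Apart from SK-LMS-1 against SK-UT-1B after DMSO or after the combination, counts over all genes moved more. The SK-UT-1B combination had 118 called genes, with 369 by DESeq2, 420 without the filter, 0 from its own libraries alone and 328 to 1056 with a library left out. MK-0752 had 53, with 131, 175 and 99, and 35 at a mean of at least 50 counts, and 116 to 270 with a library left out. The SK-LMS-1 combination had 5, with 0 to 247 over all alternatives, the difference of combination effects 49, with 20 to 828, the MK-0752 against the combination effect 8, with 3 to 237, and the DMSO sets 0, with up to 327.

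SK-LMS-1 DMSO set 4 and the combination share replicate numbers, but the deviations of replicate 1 correlated with r = 0.00243 over 13522 genes. No pairing by that number was thus seen in these values, and the labels do not state one. With 2 libraries per group, this r could not exclude a pairing. In SK-LMS-1, DMSO library 2-3 and MK-0752 library 2-3 also share both numbers, and a pairing there was not checked. With a replicate block, 0 members were called in the SK-LMS-1 combination, 0 in the difference of combination effects and 0 in MK-0752 against the combination, with 2, 32 and 7 genes called in all. Depth limits CDK6 in SK-UT-1B and the E cyclins in SK-LMS-1, at 0.792 to 19.8 estimated molecules.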
